A study of Homo sapiens with 8 samples.

Results

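Ribosome biogenesis genes were followed in KG1a cells, a human cell line established from acute myeloid leukemia, with the immature phenotype of CD34-positive cells. The set held 41 of the 25168 genes in the count table. It was chosen by symbol from the known nucleolar factors that process ribosomal RNA and assemble ribosomes and from RNA polymerase I. Cells had been exposed for 48 h to DMSO (vehicle), to TAK-981 at 5 µM, to venetoclax at 1 µM, or to both drugs at those doses (combination). TAK-981 blocks the SUMO-activating enzyme and so stops the attachment of the small modifier SUMO to proteins, and venetoclax blocks the survival protein BCL2. Each of the 4 groups held 2 libraries, with 13204588 to 26304900 counted reads per library. The labels do not say whether the 2 libraries of a group were grown as separate cultures, so the spread behind each p-value may be technical. In such bulk samples, fewer cells of a type and less RNA per cell cannot be told apart.

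All 41 genes passed the filter on low counts, so none was lost before testing among the 12843 genes tested. All 7 hematopoietic markers checked were present, among them CD34 at 982 and 952 CPM (read counts scaled to a common library size) with vehicle. Of 14 markers of epithelial, stromal, endothelial, erythroid, B and T cells, 6 had no read in any library, including the epithelial EPCAM and the globin HBB. Others were present with vehicle: the T cell markers CD3D at 24.0 and 34.4 CPM and CD3E at 13.2 and 15.6, and the endothelial PECAM1 at 18.6 and 17.5. The summed level of the 14 ran from 56.2 to 67.8 CPM with vehicle, 60.3 to 63.3 with TAK-981, 42.7 to 56.9 with venetoclax and 35.2 to 39.97 with the combination. The part of these markers in the results below was not tested.

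Ribosomes are built in the nucleolus. RNA polymerase I transcribes the long precursor of the ribosomal RNAs, small nucleolar ribonucleoproteins (snoRNPs) guide its chemical modification, and separate sets of assembly factors fold, cut and export the precursors of the small and the large subunit. The process takes a large share of the resources of a growing cell, and its genes are classic targets of the transcription factor MYC, which binds the E-box sequence. Several nucleolar proteins, NPM1 among them, carry SUMO, and the nucleolar protease SENP3 removes it. NPM1 is also one of the genes most often mutated in acute myeloid leukemia.

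The main pattern was a rise with venetoclax alone, with levels near vehicle in the combination. The 41 genes together took 0.821% and 0.874% of all reads in the vehicle libraries and 0.748% and 0.714% in the TAK-981 libraries. The share was 1.63% and 1.30% in the venetoclax libraries and 0.866% and 0.873% in the combination libraries. The highest group mean fell in the venetoclax group for 36 of the 41 genes, and the lowest in the TAK-981 group for 29. The same counts were not made over all tested genes, so they have no background. In the heat map of all 41 genes the venetoclax columns are the only pair that is warm through most rows, with WDR74 and PPAN as the clearest exceptions.

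**Figure D1:**
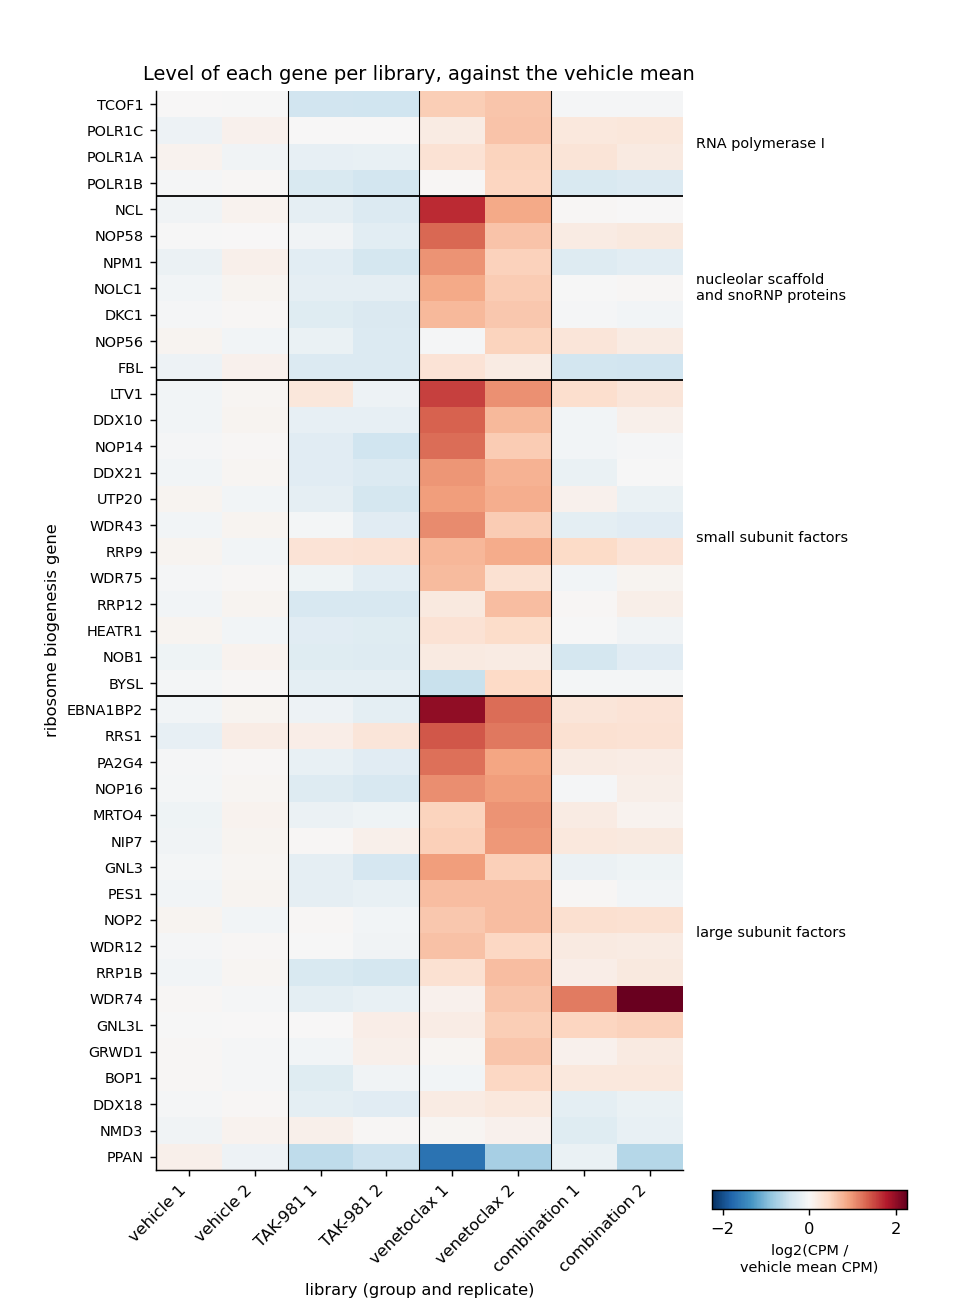
Level of each of the 41 genes (rows, grouped by role) in each of the 8 libraries (columns), as the log2 ratio of its CPM to the mean CPM of the 2 vehicle libraries. Red is above and blue below the vehicle mean. Most genes are red in both venetoclax libraries and near white in both combination libraries, while WDR74 is darkest in the combination libraries and PPAN is blue in the venetoclax libraries.

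Venetoclax alone was compared with vehicle. Of the 41 genes, 27 rose and 1, PPAN, fell at an adjusted p below 0.05 in edgeR's quasi-likelihood test with Benjamini-Hochberg adjustment over all 12843 genes. Among all tested genes 11.4% were called higher and 9.44% lower, so the share of the 41 called higher, 65.9%, stood well above the background. The median log2 fold change of the 41 was 0.66, against 0.00 over all tested genes, and 40 of 41 values were positive. In 36 genes both venetoclax libraries lay above both vehicle libraries, and only PPAN had both below. The libraries overlapped for NOP56, BYSL, BOP1 and NMD3. This order of libraries was not counted over all tested genes, so the 36 has no background beside it. Each standard error (SE) given here was derived from the test statistic of 2 libraries per group and is approximate.

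The count of 28 calls depended on which libraries set the spread. Fitted on the 4 vehicle and venetoclax libraries alone, 6 genes were called, all higher: EBNA1BP2, LTV1, NOP16, PA2G4, RRS1 and UTP20. In that fit 0.514% of tested genes were called higher and 1.08% lower. Without vehicle replicate 1 there were 7 calls and without vehicle replicate 2 there were 12, all higher, against 0.615% and 1.84% of tested genes, in a fit where the remaining vehicle library was assumed to vary like the other groups. The median log2 fold change stayed between 0.60 and 0.66 whichever single library was left out.

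**Figure D2:**
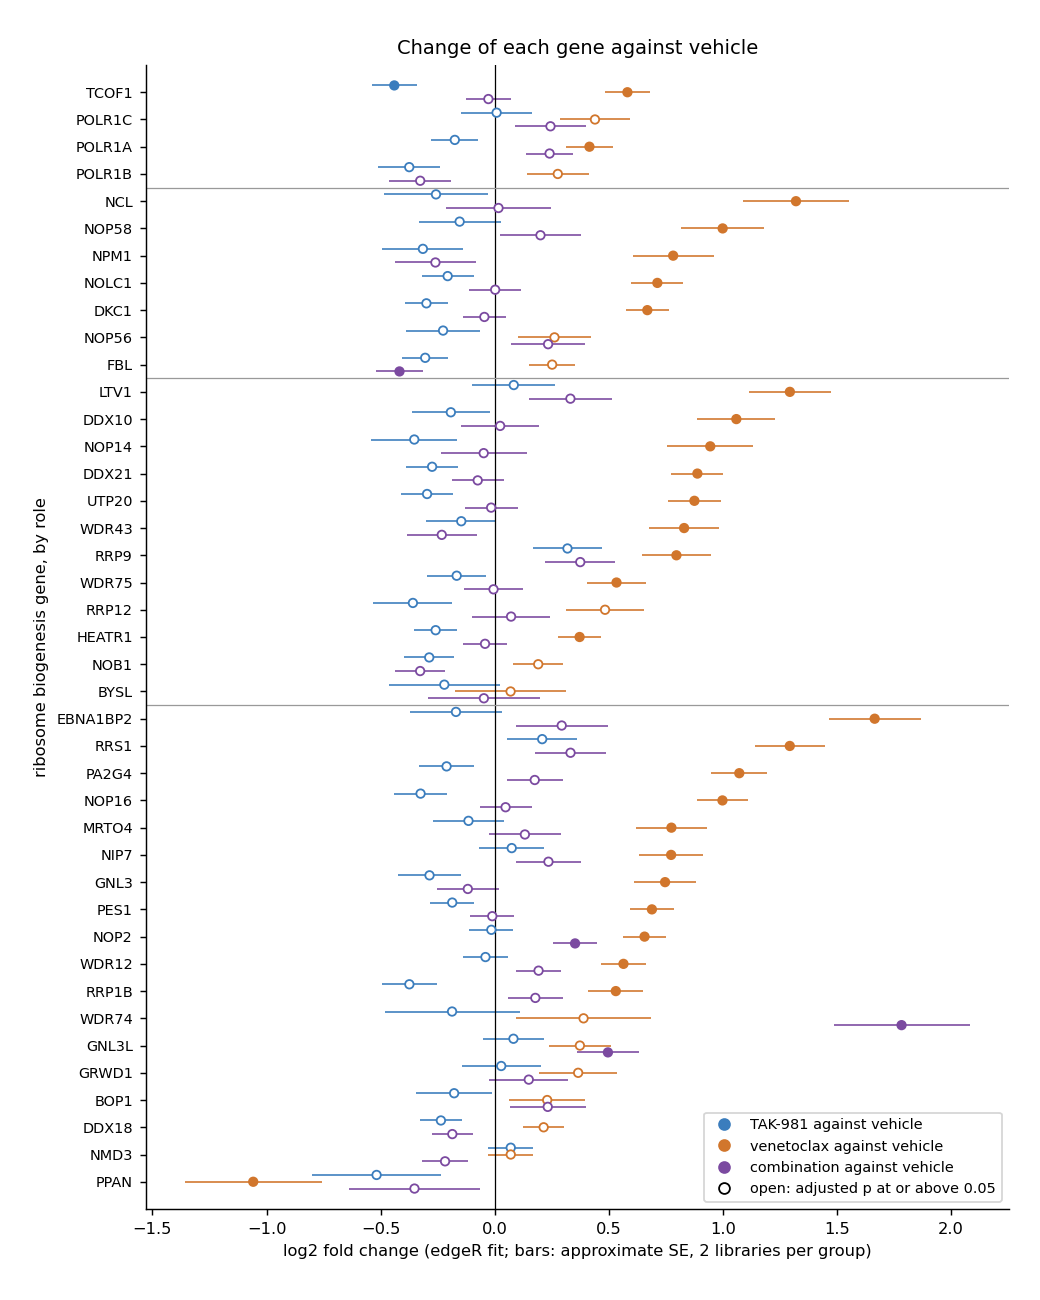
Log2 fold change against vehicle (horizontal axis) of each of the 41 genes (rows, by role) for TAK-981, venetoclax and the combination, with bars of 1 approximate SE from 2 libraries per group. Filled points passed an adjusted p of 0.05. The venetoclax points are filled for 28 genes and lie to the right for all but PPAN. Most TAK-981 points lie slightly to the left of 0 (median -0.21), and the combination points cluster around 0 apart from WDR74.

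Among the 4 RNA polymerase I genes, 2 rose with venetoclax and none fell. TCOF1 encodes treacle, the nucleolar protein that brings the polymerase to the ribosomal genes. It measured 43.0 and 42.1 CPM with vehicle, 31.6 and 31.1 with TAK-981, 62.0 and 65.2 with venetoclax and 41.6 and 41.9 with the combination. Its venetoclax libraries were the highest and its TAK-981 libraries the lowest, with no overlap between either pair and vehicle. The venetoclax rise was 0.58 ± 0.10, adjusted p = 0.00574 (log2, SE). POLR1A, the largest catalytic subunit, measured 164 and 148 CPM with vehicle, 137 and 139 with TAK-981, 194 and 221 with venetoclax and 189.6 and 178 with the combination, and rose with venetoclax by 0.42 ± 0.10, adjusted p = 0.0226. POLR1B, the second-largest subunit, measured 127 and 133 CPM with vehicle, 103 and 97.9 with TAK-981, 133 and 181 with venetoclax and 103 and 105 with the combination. One of its venetoclax libraries was at the vehicle level and the other well above it, and its venetoclax difference was 0.28 ± 0.13, adjusted p = 0.172. POLR1C, which is shared with RNA polymerase III, measured 28.7 and 33.3 CPM with vehicle, 31.2 and 31.2 with TAK-981, 35.3 and 48.3 with venetoclax and 36.5 and 37.0 with the combination, with a venetoclax difference of 0.44 ± 0.15, adjusted p = 0.0726.

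Of the 7 nucleolar scaffold and snoRNP genes, 5 rose with venetoclax (NCL, NPM1, NOLC1, NOP58 and DKC1) and 2 did not pass the test (FBL and NOP56). NCL encodes nucleolin, an RNA-binding protein of the nucleolus (chromosome 2, 231453531 to 231483641, hg38). It measured 2025 and 2244 CPM with vehicle, 1846 and 1726 with TAK-981, 6804 and 3860.4 with venetoclax and 2164 and 2155 with the combination. Both venetoclax libraries stood far above the other 6, but replicate 1 was much higher than replicate 2. The rise was 1.32 ± 0.23, adjusted p = 0.00697. NPM1, a nucleolar chaperone, measured 2010.4 and 2372 CPM with vehicle, 1856 and 1668 with TAK-981, 4405 and 3134 with venetoclax and 1800.0 and 1861 with the combination, and rose by 0.78 ± 0.18, adjusted p = 0.0167. Per kilobase of transcript, NPM1 and NCL were the most abundant of the 41 genes, at 574 and 309 CPM per kb on average with vehicle.

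The modification machinery was read through the transcripts of its proteins. NOP58, a core protein of the box C/D snoRNPs that guide ribose methylation, measured 177 and 180.2 CPM with vehicle, 169.6 and 151 with TAK-981, 437 and 278 with venetoclax and 202 and 208 with the combination, a venetoclax rise of 1.00 ± 0.18, adjusted p = 0.0077. NOP56, its partner in the same particle, measured 46.8 and 42.8 CPM with vehicle, 40.3 and 36.3 with TAK-981, 43.9 and 63.1 with venetoclax and 54.2 and 51.2 with the combination, with overlapping vehicle and venetoclax libraries (0.26 ± 0.16, adjusted p = 0.272). FBL encodes fibrillarin, the methyltransferase of the particle, and measured 152 and 176 CPM with vehicle, 133 and 133 with TAK-981, 203 and 187 with venetoclax and 124 and 122 with the combination. Its venetoclax libraries were only slightly above vehicle (0.25 ± 0.10, adjusted p = 0.106). DKC1 encodes dyskerin, the pseudouridine synthase of the box H/ACA snoRNPs, and measured 256 and 262 CPM with vehicle, 214 and 207 with TAK-981, 432 and 392.2 with venetoclax and 254 and 247 with the combination, a rise of 0.67 ± 0.10, adjusted p = 0.00348. NOLC1, a scaffold that binds both kinds of particle, measured 259 and 279.8 CPM with vehicle and 484 and 399 with venetoclax (0.71 ± 0.11, adjusted p = 0.00505).

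Of the 12 small subunit factors, 9 rose with venetoclax and 3 did not pass the test (RRP12, BYSL and NOB1). LTV1, a late assembly factor of the small subunit (chromosome 6, 143843344 to 143863812), measured 27.4 and 29.4 CPM with vehicle, 33.9 and 26.2 with TAK-981, 82.1 and 57.8 with venetoclax and 37.0 and 34.5 with the combination. Its venetoclax libraries were both above all other libraries, and the rise was 1.29 ± 0.18, adjusted p = 0.00345. UTP20, a very large protein of the early precursor particle called the small subunit processome, measured 116 and 107 CPM with vehicle, 96.4 and 85.3 with TAK-981, 213 and 197 with venetoclax and 119.5 and 101 with the combination. The gap between its venetoclax replicates was small, and the rise was 0.88 ± 0.12, adjusted p = 0.00278. WDR43, another processome component, measured 161 and 177 CPM with vehicle, 164 and 142 with TAK-981, 351 and 250.5 with venetoclax and 146 and 142 with the combination, a rise of 0.83 ± 0.15, adjusted p = 0.00849.

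The RNA helicases of the small subunit, DDX21 and DDX10, were highest in both venetoclax libraries. DDX21, which also acts in polymerase I transcription, measured 417 and 449 CPM with vehicle, 365 and 351 with TAK-981, 857 and 746 with venetoclax and 393 and 429.9 with the combination (0.89 ± 0.11, adjusted p = 0.00262 for venetoclax). DDX10 measured 111 and 122 CPM with vehicle and 292 and 194 with venetoclax (1.06 ± 0.17, adjusted p = 0.00534). NOP14, WDR75, HEATR1 and RRP9 also rose, by 0.95 ± 0.19, 0.53 ± 0.13, 0.37 ± 0.09 and 0.80 ± 0.15 on the log2 scale, but with an offset for the trend of each library with GC content, added after seeing the data, HEATR1 was at 0.27, adjusted p = 0.0857. The first 3 belong to the processome, and RRP9 binds the U3 snoRNA within it. RRP9 was among the least abundant, at 7.77 and 7.13 CPM with vehicle, 9.24 and 9.35 with TAK-981, 12.6 and 13.3 with venetoclax and 10.1 and 9.17 with the combination.

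The 3 small subunit factors without a call differed in their replicates. BYSL, an assembly factor of the small subunit, had the widest gap between venetoclax replicates of all 41 genes: 14.7 and 28.1 CPM, on either side of the vehicle values of 20.2 and 21.2. NOB1, the nuclease that makes the last cut of the small subunit RNA, measured 45.4 and 51.2 CPM with vehicle, 39.9 and 39.3 with TAK-981, 55.5 and 54.8 with venetoclax and 36.6 and 40.5 with the combination (0.19 ± 0.11, adjusted p = 0.237 for venetoclax). RRP12, a factor of pre-subunit export, measured 15.4 and 16.6 CPM with vehicle, 12.5 and 12.5 with TAK-981, 18.6 and 25.9 with venetoclax and 16.3 and 17.5 with the combination, with a venetoclax difference of 0.48 ± 0.17, adjusted p = 0.0734.

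Of the 18 large subunit factors, 11 rose with venetoclax, 1 fell and 6 did not pass the test. EBNA1BP2, an early assembly factor of the large subunit (chromosome 1, 43164175 to 43270936), had the largest rise of the 41 genes. It measured 37.5 and 40.96 CPM with vehicle, 36.1 and 33.6 with TAK-981, 156 and 94.0 with venetoclax and 47.6 and 48.6 with the combination. Both venetoclax libraries exceeded every other library by a wide margin, and the rise was 1.67 ± 0.20, adjusted p = 0.00228. RRS1, which helps to load the smallest ribosomal RNA, measured 14.2 and 18.1 CPM with vehicle, 17.8 and 19.6 with TAK-981, 42.8 and 36.7 with venetoclax and 20.5 and 20.2 with the combination, and rose by 1.29 ± 0.15, adjusted p = 0.0021. PA2G4, a growth-regulating protein bound to large subunit precursors, measured 162 and 169 CPM with vehicle, 147 and 139 with TAK-981, 390.5 and 305 with venetoclax and 187 and 186 with the combination, and rose by 1.07 ± 0.12, adjusted p = 0.00185. NOP16 had the smallest adjusted p of the set. It measured 29.3 and 30.8 CPM with vehicle, 24.6 and 23.4 with TAK-981, 62.4 and 57.8 with venetoclax and 29.3 and 32.9 with the combination, with close replicates in every group, and rose by 1.00 ± 0.11, adjusted p = 0.0018.

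**Figure D3:**
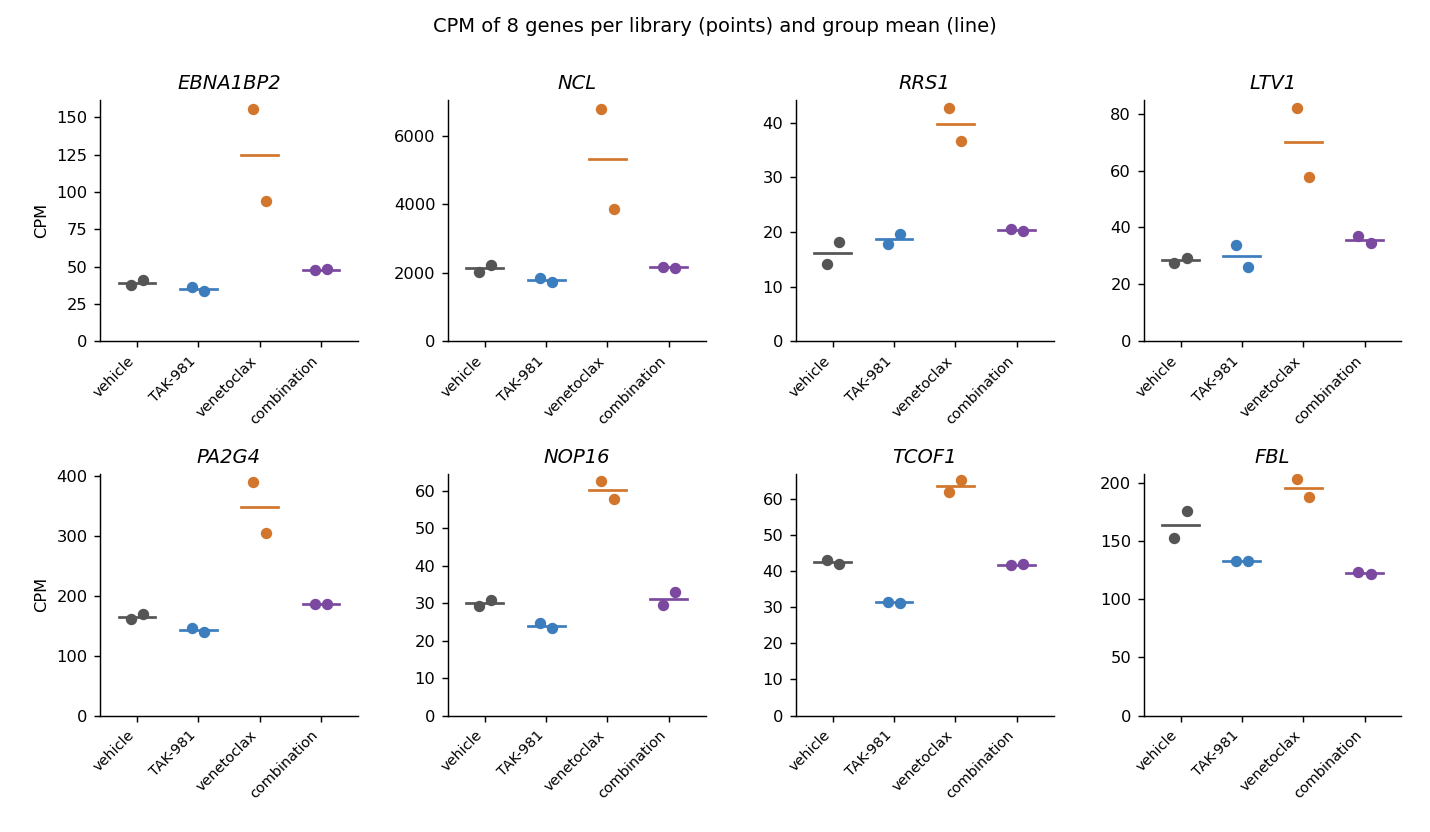
CPM (vertical axis, from 0) of 8 genes in the 4 groups; points are single libraries and lines are the means of 2 libraries. The venetoclax libraries are the highest in all 8 panels, TCOF1 and FBL show the smallest difference from vehicle, and the venetoclax replicates of EBNA1BP2 and NCL lie far apart.

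PES1, BOP1 and WDR12 form 1 complex that is needed to cut the large subunit RNA, and the transcripts of PES1 and WDR12 passed the test. PES1 rose from 61.1 and 66.5 to 103 and 103 CPM (0.69 ± 0.10, adjusted p = 0.00329) and WDR12 from 81.1 and 85.0 to 131 and 115 (0.56 ± 0.10, adjusted p = 0.00645). BOP1 measured 30.3 and 29.6 CPM with vehicle and 28.6 and 41.2 with venetoclax, with overlapping libraries (0.23 ± 0.17, adjusted p = 0.35). With the GC content offset BOP1 was at 0.54, adjusted p = 0.00598, and WDR12 at 0.46. Whether the 3 differences differ from each other was not tested. GNL3 (nucleostemin), a nucleolar GTPase, rose by 0.75 ± 0.14, while its paralog GNL3L measured 43.9 and 44.3 CPM with vehicle, 44.4 and 49.1 with TAK-981, 49.3 and 64.7 with venetoclax and 61.5 and 63.0 with the combination (0.37 ± 0.13, adjusted p = 0.0794 for venetoclax).

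NOP2, an RNA methyltransferase, rose by 0.66 ± 0.10. NIP7 and MRTO4, both early large subunit factors, rose by 0.77 ± 0.14 and 0.77 ± 0.16, and RRP1B by 0.53 ± 0.12. The helicase DDX18, the export adaptor NMD3 and GRWD1, a chaperone of a large subunit protein, did not pass the test, at 0.21 ± 0.09, 0.07 ± 0.10 and 0.37 ± 0.17. NMD3 measured 124 and 139 CPM with vehicle, 141 and 134 with TAK-981, 135 and 141 with venetoclax and 108 and 118 with the combination, with both combination libraries below the other 6.

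PPAN was the single gene that fell. This early large subunit factor measured 4.38 and 3.75 CPM with vehicle, 2.75 and 2.94 with TAK-981, 1.29 and 2.42 with venetoclax and 3.66 and 2.62 with the combination, a venetoclax difference of -1.06 ± 0.30, adjusted p = 0.036. It was the least abundant of the 41 genes per kilobase, at 1.58 CPM per kb with vehicle, and its 2 venetoclax replicates differed by 0.85 log2 units. Its table row (chromosome 19, 10106289 to 10111634) lies within a row for the read-through gene PPAN-P2RY11, and reads of shared exons may have been dropped or split, since the handling of overlapping genes is not given in the sources used here. The call was lost in 8 of 16 alternative fits, 7 of which left out 1 library, and the value in those 8 ran from -1.17 to -0.75. Without venetoclax replicate 2 the call was kept, at -1.65.

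The venetoclax replicates were further apart than those of any other group. The median absolute difference between replicates over the 41 genes was 0.39 log2 units with venetoclax, 0.11 with vehicle, 0.07 with TAK-981 and 0.05 with the combination. Over all tested genes the same medians were 0.30, 0.12, 0.11 and 0.13. In the venetoclax group the 2 replicates were more than 1.5-fold apart for 7 of the 41 genes. NCL, EBNA1BP2, NOP14, NOP58 and DDX10 were higher in replicate 1, and BYSL and PPAN in replicate 2. Even so, the median of the 41 genes against the vehicle mean was almost the same in both, 0.61 in replicate 1 and 0.62 in replicate 2. By role the replicates differed, in both directions. The medians in replicates 1 and 2 were 0.26 and 0.56 for RNA polymerase I and 0.85 and 0.57 for scaffold and snoRNP genes. They were 0.84 and 0.63 for small subunit factors and 0.51 and 0.65 for large subunit factors.

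The base composition of the transcripts was set beside the replicate differences. Across the 41 genes, the difference of venetoclax replicate 1 less replicate 2 had a Spearman correlation of -0.57 with the GC content of the gene, against -0.47 across 9779 genes of at least 5 CPM. With TAK-981, whose replicates lay close, the correlation across the 41 genes was -0.59, and it was 0.23 with vehicle and 0.22 with the combination. These are correlations across genes that share the same 2 libraries, given as a description. The 41 genes had a median GC content of 49.8%, against 47.6% over 12570 tested genes with a value. Of the 16 genes at or below the median GC of tested genes 12 rose with venetoclax, and of the 25 above it 15 rose. The shares of all tested genes called on each side of that median were not counted, so these counts have no background. The median log2 fold change with venetoclax was 0.76 for the members at or below it and 0.58 for those above. For all tested genes with a GC value it was 0.08 and -0.10. The trend of each library with GC content was also removed through offsets in the fit, an alternative added after seeing the data. Then 30 genes were higher and 1 lower, against 12.5% and 12% of tested genes, with a median of 0.64. Of the 28 calls 27 were shared, all but that of HEATR1.

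The effect of TAK-981 by itself was read against vehicle. TCOF1 was the only one of the 41 genes to pass the test, and it fell by 0.44 ± 0.10 on the log2 scale (adjusted p = 0.0204). None rose. The background was 5.98% of tested genes called higher and 6.18% lower. The median of the 41 genes was -0.21, with 33 of 41 values below 0. In 30 genes both TAK-981 libraries lay below both vehicle libraries, an order that was not counted over all tested genes. At an unadjusted p below 0.05 edgeR gave 11 genes lower and 0 higher, and the share of all tested genes below it was not counted. DESeq2 and limma-voom each called 1 gene (2.44%) lower and 0 higher after adjustment. Of tested genes they called 6.97% and 6.38% lower and 6.19% and 6.42% higher.

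The TAK-981 differences were small in every role. The largest without a call were in PPAN (-0.52 ± 0.28, larger than that of TCOF1), RRP1B (-0.37 ± 0.12), POLR1B (-0.37 ± 0.14) and RRP12 (-0.36 ± 0.17). NPM1 was at -0.31 ± 0.18, adjusted p = 0.302, and RRP9 had the largest positive value, 0.32 ± 0.15, adjusted p = 0.222. The number of calls depended on the venetoclax libraries, which this comparison does not use but which widen the shared spread. Without both of them 17 genes (41.5%) were called, all lower, against 15.6% of tested genes. Without replicate 1 or 2 alone, 17 and 16 were called lower, against 15.6% and 15.2%. Leaving out either vehicle or either TAK-981 library left 0 calls, in fits that called 0.74% to 1.17% of tested genes lower.

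The combination was compared with vehicle next. Of the 41 genes, 3 were higher (NOP2, WDR74 and GNL3L) and 1 was lower (FBL), against a background of 12.8% of tested genes higher and 15.1% lower. With all 8 libraries the share called was thus below the background in both directions, and the median was 0.02. FBL fell by 0.42 ± 0.10 (adjusted p = 0.0147), with both combination libraries below every other library. NOP2 was higher by 0.35 ± 0.10, adjusted p = 0.0238 and GNL3L by 0.50 ± 0.13, adjusted p = 0.0236. For EBNA1BP2, RRS1 and LTV1, which rose strongly with venetoclax alone, the combination differed from vehicle by 0.29 ± 0.20, 0.33 ± 0.15 and 0.33 ± 0.18, and none passed the test. Without both venetoclax libraries 14 genes (34.1%) were called higher and 6 (14.6%) lower, against 23.5% and 24.1% of tested genes, so the share called higher was then above the background. The GC content offset ended the call of NOP2 (0.19, adjusted p = 0.168). Leaving out vehicle replicate 2 or either combination library left only WDR74 called.

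Setting the combination against venetoclax alone shows the effect of TAK-981 in the presence of venetoclax. Of the 41 genes, 30 were lower and 1, WDR74, was higher. Over all tested genes 22% were called lower and 17.6% higher. The median of the 41 genes was -0.60, against -0.02 over all tested genes. In 33 genes both combination libraries lay below both venetoclax libraries, an order that was not counted over all tested genes. In the same comparison 9 of 10 noncoding RNAs taken as signs of RNA quality were called higher, with a median of 2.74. The log2 fold change had a Spearman correlation of 0.51 with GC content across 9779 genes of at least 5 CPM and 0.40 across the 41, given as a description. The part of RNA quality in the result was not tested. With the GC content offset, 29 of the 41 genes were lower and 1 higher, against 16.5% and 17% of tested genes. The median was -0.66, and 26 of the 31 calls were shared. The calls of WDR75, HEATR1, WDR12, DDX18 and NMD3 ended, with values that moved from -0.54, -0.41, -0.37, -0.40 and -0.29 to -0.17, -0.16, -0.08, -0.12 and 0.03. NOP58 moved from -0.80 to -0.52, NOP2 from -0.30 to -0.56 and PES1 from -0.70 to -1.05, and all 3 kept their calls. The venetoclax comparison and this one use the same venetoclax libraries, so a value that is high in those libraries enters both. With that said, 25 genes were called higher with venetoclax and lower in the combination than with venetoclax. The share of all tested genes with both calls was not counted, so the 25 has no background.

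By role, 2 of 4 polymerase genes were lower, 6 of 7 scaffold and snoRNP genes, 9 of 12 small subunit factors and 13 of 18 large subunit factors. DDX21 had the smallest adjusted p (-0.96 ± 0.11, adjusted p = 0.000547), followed by NOP16 (-0.95 ± 0.11, adjusted p = 0.000571) and UTP20 (-0.89 ± 0.12, adjusted p = 0.000782). The largest differences were in EBNA1BP2 (-1.37 ± 0.20) and NCL (-1.30 ± 0.23). FBL, which had not passed the test with venetoclax, was also lower (-0.67 ± 0.10, adjusted p = 0.00146), as were POLR1B, NOB1, DDX18 and NMD3. The weakest of the calls was NMD3 (-0.29 ± 0.10, adjusted p = 0.0451), and it was lost in 12 of 16 alternative fits.

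The number of these calls also moved with the choice of libraries. With the 4 venetoclax and combination libraries alone, 19 genes were called lower and 1 higher, against 9.40% and 10.5% of tested genes. Leaving out combination replicate 1 or 2 left 19 or 20 lower, against 11.9% and 9.74% of tested genes, and WDR74 higher. Leaving out venetoclax replicate 1 gave 36, all lower, against 24.2% of tested genes. Of the 31 calls, 18 held in each alternative fit that was run, among them NCL, NPM1, EBNA1BP2, NOP16, DDX21, FBL and TCOF1.

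**Figure D4:**
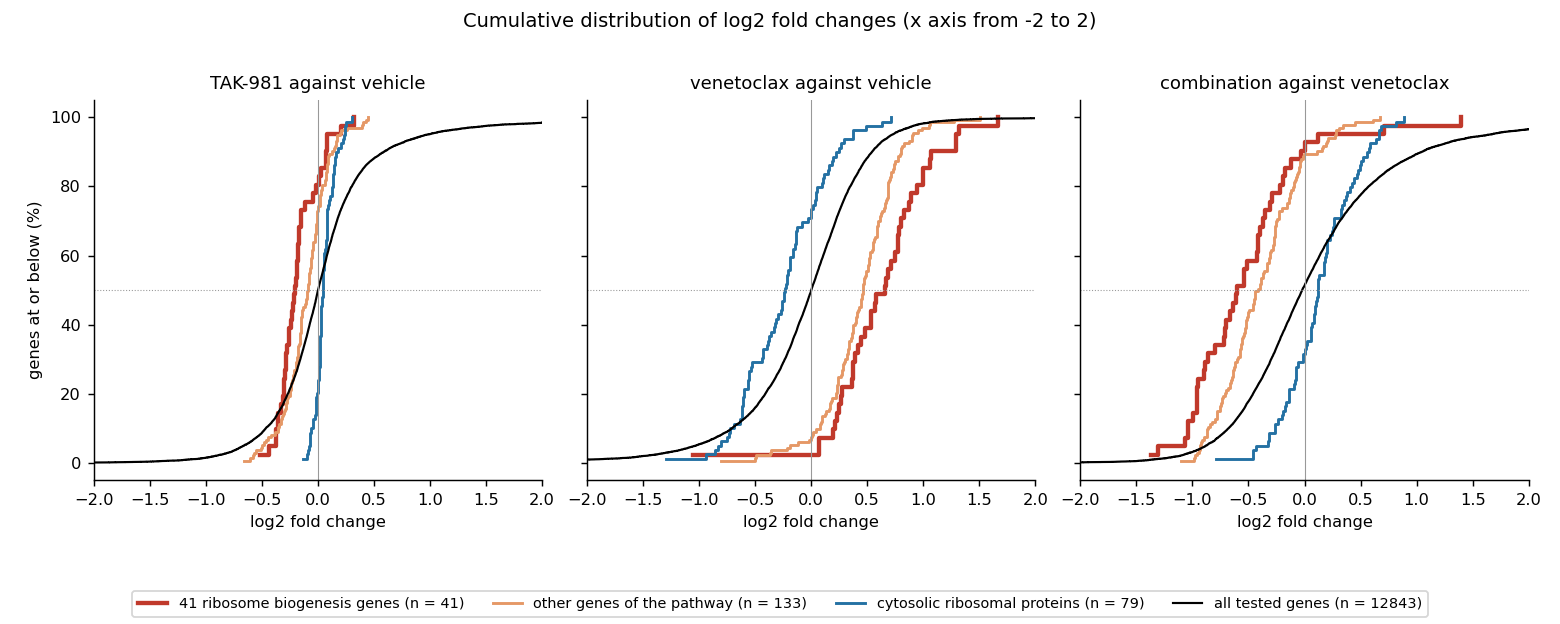
Cumulative share of genes (vertical axis, percent) against log2 fold change (horizontal axis, limited to -2 to 2) for the 41 genes, 133 other genes of the pathway, 79 cytosolic ribosomal protein genes and all 12843 tested genes, in 3 comparisons. For venetoclax the 41 genes lie to the right of all genes (medians 0.66 and 0.00) and the ribosomal proteins to the left (-0.24), and for the combination against venetoclax the 41 genes lie to the left (-0.60).

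Against TAK-981 alone, the combination shows the effect of venetoclax when SUMO attachment is blocked. Of the 41 genes, 5 were higher (POLR1A, TCOF1, RRP1B, NOP2 and WDR74) and 0 lower, against 2.76% of tested genes higher and 6.03% lower. The median was 0.23, and 37 of 41 values were positive. RRP1B was higher by 0.55 ± 0.12, adjusted p = 0.0251, TCOF1 by 0.41 ± 0.10, adjusted p = 0.0336 and POLR1A by 0.42 ± 0.10, adjusted p = 0.0396. EBNA1BP2, which led the venetoclax response, was at 0.46 ± 0.20, adjusted p = 0.196, and NCL at 0.27 ± 0.23, adjusted p = 0.506. At an unadjusted p below 0.05 edgeR gave 16 genes higher and 1 lower, and the share of all tested genes below it was not counted. DESeq2 and limma-voom each called 5 (12.2%) higher and 0 lower after adjustment. Of tested genes they called 3.69% and 2.82% higher and 6.83% and 6.11% lower. The count was unstable: it was 21 without both venetoclax libraries (20 higher, 1 lower, against 13.1% and 15.5% of tested genes), 0 without either TAK-981 library or without combination replicate 2, and 1 without either vehicle library or without combination replicate 1. The GC content offset ended the calls of POLR1A, TCOF1 and NOP2, at 0.33, 0.31 and 0.26 (adjusted p = 0.0616, 0.0883 and 0.127).

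The interaction asks whether the effect of TAK-981 with venetoclax differed from its effect without. None of the 41 genes passed edgeR's test, in which 0.0311% of tested genes were called higher and 0 lower. The median was -0.37, against -0.01 over all tested genes, and 34 of 41 values were negative. RRS1 had the lowest adjusted p (-1.17 ± 0.22, adjusted p = 0.0999), and EBNA1BP2 the most negative value (-1.20 ± 0.28, adjusted p = 0.13). At an unadjusted p below 0.05, 23 genes were lower and 2 higher, and the share of all tested genes below it was not counted. The outcome depended on the tool, the filter and the libraries. DESeq2 called 6 lower and 1 higher after adjustment, against 1.01% and 1.06% of tested genes, and limma-voom called none. With no filter on low counts edgeR called 14 lower and 2 higher, against 3.6% and 2.46% of tested genes. Without venetoclax replicate 1, 14 genes (34.1%) were called lower, against 3.71% of tested genes. Without venetoclax replicate 2, 23 (56.1%) were called lower and 4 (9.76%) higher, against 20% and 14.6% of tested genes.

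WDR74, a large subunit factor that works with the nuclear RNA exosome, stood apart. It measured 48.8 and 46.7 CPM with vehicle, 41.2 and 42.7 with TAK-981, 50.9 and 73.5 with venetoclax and 107 and 223 with the combination. Both combination libraries were above all others, but they differed from each other by 1.06 log2 units, the widest replicate gap among the 41 genes. The difference was 1.78 ± 0.30, adjusted p = 0.00276 against vehicle, 1.39 ± 0.30, adjusted p = 0.00625 against venetoclax and 1.97 ± 0.30, adjusted p = 0.00656 against TAK-981. Leaving out single libraries moved the first value between 1.16 and 2.21 and kept its call, while the call against venetoclax was lost without venetoclax replicate 1. The call against TAK-981 was lost in 4 of 17 alternative fits, among them those without either TAK-981 library and without combination replicate 2, where the value was 1.35.

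The WDR74 row covers chromosome 11, 62832911 to 62841809 (hg38, minus strand). GENCODE v29 places RNU2-2P, a small nuclear RNA of 191 bases, at 62841619 to 62841809 on the same strand, within an exon of WDR74, and its last base is also the last of the WDR74 row. RNU2-2P has no row of its own in the count table. Several RNAs without a poly(A) tail rose in the same libraries. RN7SK measured 2.91 and 3.29 CPM with vehicle, 8.81 and 5.72 with TAK-981, 10.4 and 9.12 with venetoclax and 56.7 and 91.4 with the combination, and RN7SL1 2.43 and 2.77 CPM with vehicle, 7.05 and 7.43 with TAK-981, 5.86 and 11.6 with venetoclax and 41.2 and 94.1 with the combination. Of 10 noncoding RNAs taken as signs of RNA quality, 9 were called higher in the combination than with vehicle, and their summed level ran from 3403 to 3783 CPM with vehicle and from 12177 to 14215 CPM with the combination, most of it MALAT1. LOC105369332, which overlaps the same end of WDR74 on the opposite strand, had 4 and 2 reads with vehicle and 36 and 38 with the combination. The part of such reads in the WDR74 value was not tested.

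**Figure D5:**
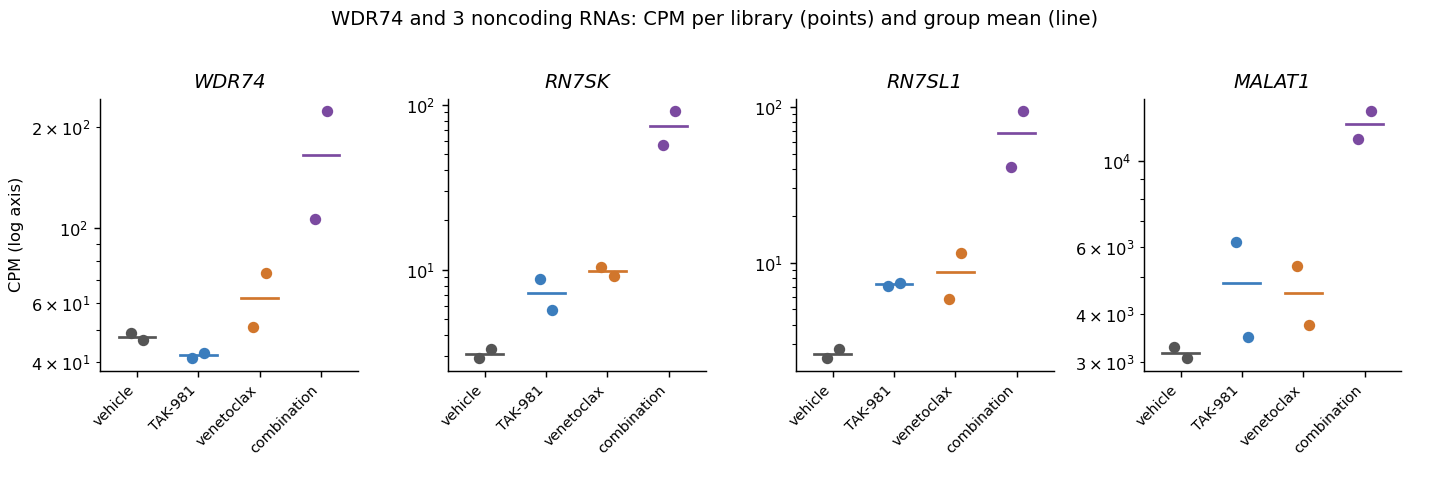
CPM (log axis) of WDR74 and of the noncoding RNAs RN7SK, RN7SL1 and MALAT1 in the 4 groups; points are single libraries and lines are the means of 2 libraries. All 4 are highest in the 2 combination libraries, and combination replicate 2 is above replicate 1 in each panel.

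The rest of the pathway, 133 further genes listed by role, was also mostly higher with venetoclax. In that comparison 76 (57.1%) were higher and 2 (1.5%) lower, with a median of 0.46, against the background of 11.4% and 9.44%. By role, 5 of 12 other genes of polymerase I and its factors were higher, 7 of 9 other snoRNP proteins, 27 of 47 other small subunit factors, 28 of 45 other large subunit factors and 9 of 20 nucleases and exosome subunits. CD3EAP, a polymerase I subunit, measured 14.9 and 15.8 CPM with vehicle, 11.2 and 10.4 with TAK-981, 49.6 and 37.7 with venetoclax and 23.4 and 21.8 with the combination (1.51 ± 0.15, adjusted p = 0.00145). GAR1, the partner of dyskerin, was higher by 0.99 ± 0.11, adjusted p = 0.00181, and UTP11 by 0.95 ± 0.11, adjusted p = 0.0021. The 2 lower genes were NOP53 (-0.80 ± 0.15, adjusted p = 0.00842) and RIOK3 (-0.49 ± 0.10, adjusted p = 0.00979).

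In the other comparisons the calls among these 133 genes stood well above the background only for lower levels in the combination than with venetoclax. For higher levels in the combination than with TAK-981 their share was near the background. With TAK-981, 1 was higher (NOP10, 0.45 ± 0.12) and 8 (6.02%, against 6.18% of tested genes) were lower, with a median of -0.09, led by EXOSC2 (-0.58 ± 0.10), POLR1E (-0.66 ± 0.13) and UTP4 (-0.48 ± 0.10). With the combination against vehicle, 14 (10.5%, against 12.8%) were higher and 7 (5.26%, against 15.1%) lower, with TTF1 (0.80 ± 0.13), POP4 (0.62 ± 0.10) and NOP10 (0.66 ± 0.12) at the top and RSL24D1 (-0.89 ± 0.11), RIOK3 (-0.58 ± 0.10) and WDR36 (-0.47 ± 0.09) at the bottom. Against venetoclax, 73 (54.9%, against 22%) were lower in the combination, with a median of -0.41, including GAR1 (-0.98 ± 0.11), MAK16 (-0.92 ± 0.11) and TWISTNB (-0.87 ± 0.10), and NOP53 (0.45 ± 0.15) was the 1 that was higher. Against TAK-981, 5 (3.76%, against 2.76%) were higher, among them CD3EAP (1.07 ± 0.16), DDX55 (0.53 ± 0.09) and TTF1 (0.54 ± 0.12), and RSL24D1 (-0.61 ± 0.11) and RIOK3 (-0.41 ± 0.10) were lower.

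The transcripts of the proteins of the finished ribosome were read in the same way. Of 79 cytosolic ribosomal protein genes, 1 (1.27%) was higher and 13 (16.5%) were lower with venetoclax, with a median of -0.24, against the background of 11.4% higher and 9.44% lower. In the combination against venetoclax, 9 (11.4%) were higher and 0 lower, with a median of 0.12, against 17.6% and 22% of tested genes. With TAK-981 against vehicle none was called and the median was 0.04. The medians of the ribosomal proteins were opposite in sign to those of the 41 assembly factors in each of these comparisons, but their libraries varied. Against the vehicle mean, their medians were -0.19 and 0.19 with vehicle and 0.03 and 0.06 with TAK-981. They were -0.23 and -0.27 with venetoclax and -0.27 and 0.004 with the combination. Replicate 1 of vehicle and of the combination thus lay close to the venetoclax libraries. Whether the lists differ was not tested.

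Regulators of the pathway were read for every library. MYC measured 290.2 and 305 CPM with vehicle, 178 and 198 with TAK-981, 299 and 397 with venetoclax and 209 and 247 with the combination. It fell with TAK-981 by 0.66 ± 0.15 (adjusted p = 0.0201), and the combination was below venetoclax by -0.61 ± 0.15, adjusted p = 0.0105. Its venetoclax difference, 0.23 ± 0.15, adjusted p = 0.295, did not pass the test. MAX, the partner of MYC, rose with venetoclax by 0.48 ± 0.14, adjusted p = 0.0355. UBTF, which opens the ribosomal genes for polymerase I, measured 189 and 184 CPM with vehicle, 168 and 161 with TAK-981, 316 and 284 with venetoclax and 204 and 194 with the combination, and rose with venetoclax by 0.69 ± 0.10, adjusted p = 0.00345. SENP3 measured 3.56 and 3.03 CPM with vehicle, 3.48 and 3.47 with TAK-981, 2.13 and 4.09 with venetoclax and 3.84 and 3.57 with the combination, with no call in any comparison.

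The promoters of the members were searched for the E-box, since MYC and MAX bind it and both were measured. RefSeq promoters (GRCh38.p14, from 250 bases before to 50 after the start) were at hand for 33 of the 41 genes, in 40 entries. The E-box, CACGTG, reads the same on both strands and was found in 14 of 40 entries (35%), against 9.40% of 14239 promoters of tested genes and 7.26% of all 35116 promoters. Counted by gene, 13 of 33 held it, against 12.7% of 9828 tested genes. It was found in 11 of 22 that rose with venetoclax and in 2 of 11 that did not. The windows below are those of the 6 genes with an E-box and the smallest venetoclax p, and of the 2 genes with an E-box and no venetoclax call. Each is 30 bases, 5′ to 3′ on the strand of the gene, with the E-box in capitals and the build of the promoter table.
EBNA1BP2 (chr1:43172241-43172270, minus strand): tggcgctggagcgattcggtggCACGTGga
DDX21 (chr10:68956604-68956633, plus strand): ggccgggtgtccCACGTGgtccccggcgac
UTP20 (chr12:101280083-101280112, plus strand): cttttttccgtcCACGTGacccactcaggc
PES1 (chr22:30591880-30591909, minus strand): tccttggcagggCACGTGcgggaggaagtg
LTV1 (chr6:143843354-143843383, plus strand): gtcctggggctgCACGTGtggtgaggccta
NOP2 (chr12:6568242-6568271, minus strand): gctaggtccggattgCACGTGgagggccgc
FBL (chr19:39846356-39846385, minus strand): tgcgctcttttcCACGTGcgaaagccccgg
BYSL (chr6:41921515-41921544, plus strand): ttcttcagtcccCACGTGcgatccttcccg

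Counted from the first transcribed base as 1, the E-box began at base 43 in EBNA1BP2, 14 in PES1, 29 in LTV1, 36 in NOP2, 7 in FBL and 29 in BYSL. In DDX21 and UTP20 it began before the start, at -31 and -10. FBL and BYSL, shown because they hold an E-box without a venetoclax call, carry the same 6 letters close to the start. Whether the letters separate genes with and without a venetoclax call was not tested. The ETS motif CCGGAAG was found on either strand in 35% of the 40 entries and 17.1% of promoters of tested genes, the GC box GGGCGG in 67.5% and 64.3%, and CCAAT in 30% and 34.8%. Matches of different motifs may overlap. A match is a description of the sequence, not evidence of binding.

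Some of the genes host small RNAs of the same pathway. In GENCODE v29, 8 of the 41 genes (19.5%) hold snoRNA genes or the related scaRNA genes on their own strand, 26 in all, against 1.82% of 11618 tested protein-coding genes. NOP56 holds 5, and GNL3, NOP58, NCL, WDR43, DKC1, PPAN and POLR1C are further hosts. The snoRNA rows of the table carried few reads, given here without scaling to library size. SNORD11 within NOP58 had 12 and 14 reads with vehicle, 13 and 10 with TAK-981, 30 and 27 with venetoclax and 17 and 7 with the combination. Others did not show such a difference. Within NCL, SNORD20 had 15 and 14 reads with vehicle and 13 and 21 with venetoclax, and SNORA75 had 17 and 10, then 12 and 16. Within GNL3, SNORD19 had 24 and 8, then 11 and 25, and SNORD69 had 12 and 7, then 10 and 13. Another gene row overlapped 23 of the 41 genes, and the strand setting of the counting is not given in the sources used here, so reads of opposite-strand neighbours cannot be told apart. For example CFAP57, opposite EBNA1BP2, had 0 to 4 reads per library, whereas LGALS8, opposite HEATR1, had 1869 to 5196. GENCODE names pseudogenes after 11 of the genes, 45 of them after NPM1, and reads from NPM1 and its copies could have been shared or dropped, which makes the level of NPM1 uncertain.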

How the data were processed

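RNA sequencing counts for 8 KG1a libraries were analysed. The deposited values are read counts per gene, not normalized, with hg38 coordinates and a gene length that was used only for CPM per kb. The submitters' processing notes list STAR 2.6.0, HTSeq 0.11.1, Trimmomatic and edgeR without roles. Annotation, strand setting and handling of multi-mapped reads are not given in the sources used. Ribo-Zero is named by the series text, but a low-input SMART-Seq kit by the labels' protocols, so the capture of RNAs without poly(A) is uncertain.

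Groups came from the submitters' labels. Counts were tested with edgeR 4.0.16 (R 4.3.3, limma 3.58.1): TMM scaling, filterByExpr by group, robust quasi-likelihood F test, 1 fit over all 8 libraries, two-sided, Benjamini-Hochberg over 12843 genes, threshold 0.05. All adjusted p-values come from it unless another tool is named. Each SE is the size of the log2 fold change divided by the root of F. CPM use TMM-scaled library sizes, and log2 CPM between replicates a prior count of 2. Alternatives were DESeq2's size factors, DESeq2 1.42.0, limma-voom, other filters, a replicate block, subsets of libraries and an added GC content offset.

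The members, gene lists, motifs and alternatives were chosen with earlier results of these data known. Per-library values are given for the 4 called members with the smallest p per direction and comparison and for the most and least changed of each role, with some further members. Other pathway genes are named up to 3 per direction and comparison by p, at 5 CPM or more on average. Of the 133 listed, 7 were matched by an older symbol.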

Additional observations from a re-analysis of the deposited data

How the results depend on the processing

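The median log2 fold change of the 41 genes kept its sign in every fit that was run for every comparison, and DESeq2's size factors moved the median of all genes by at most 0.02. Counts of called members moved more. With no filter on low counts, 4 members were called for TAK-981 and 16 for the interaction, and DESeq2 called 7 for the interaction. With the 4 libraries of a comparison alone, 17 members (41.5%) were lower for TAK-981, against 16.7% of tested genes. For venetoclax 6 (14.6%) were higher, against 0.514%. The combination had 9 (22%) higher and 5 (12.2%) lower than with vehicle, against 22.3% and 22.6%. It had 1 higher and 19 (46.3%) lower than with venetoclax, against 10.5% and 9.4%. Compared with TAK-981 it had 20 (48.8%) higher and 1 lower, against 13.4% and 15.7%. Without both venetoclax libraries 17 members were lower for TAK-981, against 15.6% of tested genes. The combination then had 14 higher and 6 lower than with vehicle, against 23.5% and 24.1%. It had 20 higher and 1 lower than with TAK-981, against 13.1% and 15.5%. Leaving out 1 library at a time gave 0 to 17 for TAK-981, 7 to 36 for venetoclax, 1 to 21, 20 to 36 and 0 to 22 for the combination against vehicle, venetoclax and TAK-981, and 0 to 27 for the interaction. The share of all tested genes called also differed between those fits, so these counts have no common background. The medians in those fits ran from -0.24 to -0.18, 0.60 to 0.66, 0.012 to 0.092, -0.61 to -0.54, 0.20 to 0.25 and -0.44 to -0.35 in that order.

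With the GC content offset, added after seeing the data, 2 members (4.88%) were called lower for TAK-981, against 7.45% of tested genes. The median of the combination against venetoclax was -0.66, and NMD3 in that comparison changed sign to 0.031. The offset ended 10 of the 69 member calls: HEATR1 for venetoclax, NOP2 for the combination against vehicle, WDR75, HEATR1, WDR12, DDX18 and NMD3 against venetoclax, and POLR1A, TCOF1 and NOP2 against TAK-981. No other called member changed sign. With the replicate block the counts were 1, 28, 4, 31, 4 and 0 in the order above. Of tested genes 6.57%, 12.5%, 13.7%, 18.8%, 3.18% and 0.132% were then called higher. The shares called lower were 6.97%, 10.8%, 15.9%, 22.5%, 6.58% and 0.0545%. The replicate numbers did not pair the libraries: correlations between groups of the replicate difference ran from -0.01 to 0.21. PPAN, at 1.29 to 4.39 CPM, rests on the fewest reads of the 41.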

Other observations

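Noncoding RNAs of the nucleolus were read outside the comparisons of the 41 genes, and their low counts carry the uncertainty about RNAs without poly(A) tails. RMRP, the RNA of the enzyme that cuts the ribosomal RNA precursor, measured 0.912 and 1.11 CPM with vehicle, 1.72 and 0.588 with TAK-981, 0.457 and 0.896 with venetoclax and 4.57 and 4.95 with the combination, and was higher in the combination than with vehicle by 2.22 ± 0.42, adjusted p = 0.00462 in edgeR's test. RPPH1, its relative in transfer RNA processing, was higher by 1.75 ± 0.48, adjusted p = 0.0257. SNORD3A, a gene of the U3 snoRNA that the small subunit processome is built on, measured 2.65 and 2.73 CPM with vehicle, 4.73 and 2.19 with TAK-981, 0.152 and 0.312 with venetoclax and 2.51 and 8.95 with the combination, lower with venetoclax than with vehicle by -3.37 ± 0.83, adjusted p = 0.0223. The venetoclax value rests on 2 and 8 reads, and the protein partner RRP9 rose in the same libraries. SNORD118 and SNORA73A had no read in any library, while SNORA73B measured 2.48 and 2.18 CPM with vehicle, 2.10 and 2.35 with TAK-981, 0.837 and 3.78 with venetoclax and 5.03 and 4.22 with the combination with no call.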
